A study of Mus musculus with 11 samples.

Results

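The genes described here encode mediators that reactive glial cells can release or make: the chemokines Cxcl2 and Cxcl12, the prostaglandin-forming enzyme COX-2 (Ptgs2), the alarmin S100a8, galectin-3 (Lgals3) and the stress cytokine Gdf15. They are 6 of the 1967 genes in the 5 deposited transcript tables, and 11 of the 2510 transcripts. Every row with one of these gene symbols was taken, 29 rows in all. The genes were chosen by results of the same ATP against Control contrast, so their ratios are given as a description, without a test.

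ATP-treated msEGCs (primary mouse enteric glial cells) had received 100 µM ATP for 6 h (6 libraries), and Control msEGCs had been left untreated (5 libraries). All cultures came from C57BL/6 mice, listed as BL6, and were grown from the muscle layer of the small bowel by way of neurospheres. The study's methods give an age of 8-16 weeks and name no sort, so other cells of the gut wall can remain in the cultures. By staining, the paper found most cells of its cultures to express GFAP, with Sox10 and S100β also seen. It counted αSMA-positive fibroblasts beside them. The treatment label names ATP for all 11 libraries, and only the titles separate ATP from Control. The labels do not say which libraries share a mouse or a preparation. The library codes fall into 3 number ranges, 1 of them with ATP libraries only and 1 with Control libraries only. No label says whether the ranges are batches, and if they are, batch and treatment cannot be fully told apart here. The paper thinks batches of primary cells the most likely source of differences in the strength of the response to ATP.

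When cells are damaged, ATP reaches the outside and acts on purinergic receptors. Glial cells that sense injury change state, which in the central nervous system is called gliosis, and can then signal to immune cells. Chemokines bind receptors on leukocytes and direct their migration. COX-2 turns arachidonic acid into the precursor of prostaglandins, S100 alarmins act on pattern-recognition receptors, galectin-3 binds β-galactosides on glycoproteins, and GDF15 signals through GFRAL with the co-receptor RET.

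The tables held values on 2 scales, and only group means were given. The gliosis table held estimated counts that were not scaled for library depth. The other 4 tables, for significant genes, MAPK cascade, cell motility and cytokine response, held depth-scaled values, in which a transcript listed in more than 1 table had the same values in each (385 transcripts, largest relative difference 0). No value per library was given, so the spread between cultures and the depth of each library are unknown here and no SD could be computed. Libraries were made with a 3′ mRNA kit that reads the 3′ end of polyadenylated RNA, mostly 1 fragment per transcript, so values are given without division by length. Isoforms that share a 3′ end are hard to separate in such data, and each value is given under the transcript name in the tables.

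On the GRCm38 build of the mouse genome, GENCODE M21 places Cxcl2 on chromosome 5 from 90903871 to 90905938, Cxcl12 on chromosome 6 from 117168535 to 117181367 and Ptgs2 on chromosome 1 from 150100031 to 150108227, all on the plus strand. S100a8 lies on chromosome 3 from 90668978 to 90670035 and Lgals3 on chromosome 14 from 47367751 to 47386160, both on the plus strand, while Gdf15 is a minus-strand gene of chromosome 8, from 70629393 to 70632456. The files name no build. Their transcript names, such as Ptgs2-001, follow an older naming, and 0 of the 11 was found in GENCODE M21, so no exon could be tied to a value.

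The sequence upstream of the start site is shown for 3 genes: Cxcl2, which had the highest ratio of the mediators, Ptgs2, whose ratio was high on both scales, and Cxcl12, the only mediator that was lower after ATP. The bases come from RefSeq on GRCm38.p6, are written 5′ to 3′ on the gene's strand, and end before the earlier of the RefSeq and GENCODE starts. Capitals mark matches to the motifs searched.
Cxcl2, chr5:90903671-90903870, plus strand: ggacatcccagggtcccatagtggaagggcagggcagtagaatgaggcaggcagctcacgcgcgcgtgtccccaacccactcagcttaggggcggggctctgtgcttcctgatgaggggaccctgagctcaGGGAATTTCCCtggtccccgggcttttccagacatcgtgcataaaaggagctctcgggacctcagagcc
Ptgs2, chr1:150099831-150100030, plus strand: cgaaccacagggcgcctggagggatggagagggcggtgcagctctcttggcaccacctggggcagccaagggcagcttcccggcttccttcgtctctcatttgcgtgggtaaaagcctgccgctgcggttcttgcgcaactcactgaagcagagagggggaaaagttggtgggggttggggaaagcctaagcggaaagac
Cxcl12, chr6:117168335-117168534, plus strand: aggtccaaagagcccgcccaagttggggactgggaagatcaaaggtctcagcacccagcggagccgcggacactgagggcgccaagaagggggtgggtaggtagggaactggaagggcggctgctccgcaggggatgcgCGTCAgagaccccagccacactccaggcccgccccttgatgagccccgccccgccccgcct

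RefSeq windows of 300 bases, 250 before and 50 after the start, were found for all 6 genes (7 windows) among 32851 windows of 27025 genes. On both strands, 6 motifs were searched: the NF-κB consensus, AP-1 (TGANTCA), CRE (TGACGTCA), the CRE core (TGACG, which also lies inside CRE), the TATA box (TATAAA) and the C/EBP-ATF composite (TGATGNAA). The Cxcl2 window held the NF-κB consensus as an overlapping pair, 1 on each strand, which begin at -97 and -96 from the RefSeq start. This consensus was in 4.51% of all windows. The CRE core was in the Cxcl12 window at -61 and in the Ptgs2 window at 14 after the start, on the minus strand in both, against 20.8% of all windows. The S100a8 window held a TATA box at -30, against 13.6% of all windows. AP-1 (7.81% of all windows), CRE (1.79%) and the C/EBP-ATF composite (3.97%) were in 0 of the 7 windows, and the Lgals3 and Gdf15 windows held none of the 6. A match describes letters in a window and no more.

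In the gliosis table, 8 transcripts of 5 mediators were listed, and all 8 had an ATP mean at least 1.5 times the Control mean. Over the whole table, 32.9% of 222 transcripts were that much higher after ATP and 27.5% were that much lower. The median ratio was 3.26 over the 8 mediator transcripts and 1.04 over the table. Since the genes were chosen on this contrast, nothing is read from this difference. The order of the mediators by ratio was Cxcl2, S100a8, Ptgs2, Lgals3-003, Gdf15-002, Gdf15-001, Lgals3-002 and Lgals3-001. Neighbours overlapped in their counting intervals, except for Ptgs2 with Lgals3-003, Gdf15-002 with Gdf15-001 and Lgals3-002 with Lgals3-001. In bulk RNA, more RNA per cell and more cells of a type cannot be told apart.

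**Figure D1:**
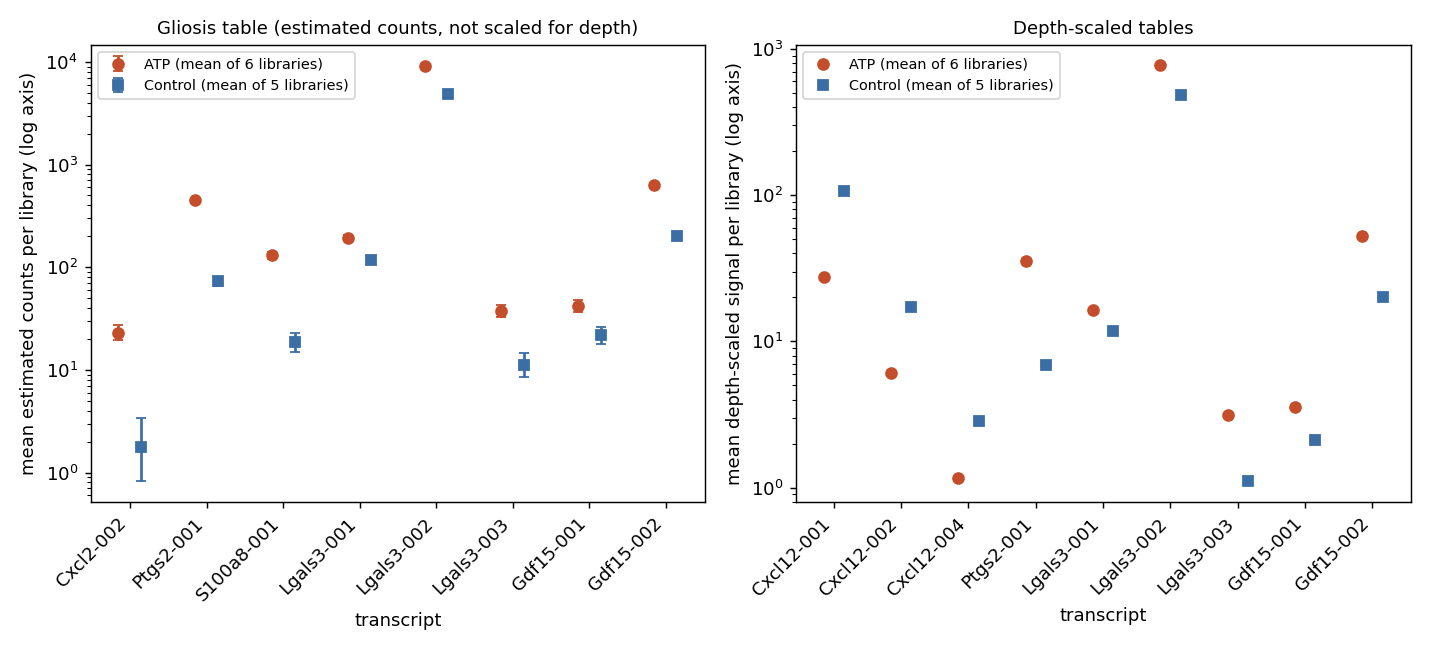
Mean of each mediator transcript after ATP (circles, 6 libraries) and in Control (squares, 5 libraries), as estimated counts on the left and as depth-scaled signal on the right, on log axes; bars on the left are exact 95% counting intervals of the mean. The ATP circle lies above the Control square for each transcript but the 3 of Cxcl12, and the lowest mean is the 1.11 of Lgals3-003 in Control on the depth-scaled axis.

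Cxcl2, a chemokine that draws neutrophils through the receptor CXCR2, was listed with 1 transcript, which was scarce in Control cultures. Transcript Cxcl2-002 averaged 22.9 estimated counts per library after ATP, against 1.79 in Control. Summed over libraries this came to 138 counts in the ATP libraries and 9 in the Control libraries, rounded from 137.6 and 8.96. Such sums are not whole, as when reads are divided with transcripts that are not listed. The level of the whole gene is therefore unknown here. The ratio of means was 12.8, the second highest of the 222 transcripts, with a counting interval of 6.54 to 28.5. The 9 counts in Control set the width of this interval, and with a pseudocount of 1 the ratio was 8.57. By its total, Cxcl2-002 stood at place 195 of 222, so this is a large ratio at a low level. It had no row in the depth-scaled tables.

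Cxcl12, a chemokine made by stromal cells that acts on CXCR4 and ACKR3, went the other way. Its main transcript, Cxcl12-001, averaged a depth-scaled value of 27.4 after ATP and 105.9 in Control, a ratio of 0.26. Cxcl12-002 had 6.04 after ATP and 17.3 in Control (ratio 0.35). Cxcl12-004, the scarcest, had 1.16 after ATP and 2.86 in Control (ratio 0.41). All 3 listed transcripts were thus lower after ATP, by 2.46 to 3.86 times. Summed over the 3 transcripts, the gene had 34.6 after ATP and 126.1 in Control (ratio 0.27). The gliosis table held no row of Cxcl12, so no counting interval could be given.

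In the table of the cytokine response, 4 mediator rows were listed. The 3 Cxcl12 transcripts were lower by at least 1.5 times and Ptgs2-001 was higher, in a table where 37.9% of 174 transcripts were lower and 27.6% were higher by that much. The table of cell motility held 9 mediator rows, of which 5 were higher and 3 were lower by at least 1.5 times and 1 was within this range. Over its 325 transcripts, 33.2% were higher and 33.8% were lower. In the MAPK cascade table both rows, Gdf15-001 and Gdf15-002, were higher, against 26.8% of 228 transcripts.

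Ptgs2, the inducible enzyme of prostaglandin synthesis, had the highest ratio of the mediators listed on both scales, with ample estimated counts. Ptgs2-001 averaged 451.3 estimated counts after ATP and 73.2 in Control. Over libraries, the sums were 2708 counts after ATP and 366 in Control. Both sums were whole numbers within 0.001, as when no read is divided among transcripts. The ratio was 6.17, place 5 of 222, with a counting interval of 5.53 to 6.90. On the depth-scaled values Ptgs2-001 averaged 35.3 after ATP and 6.90 in Control, a ratio of 5.12.

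S100a8, a calcium-binding alarmin that pairs with S100a9 to form calprotectin, stood just above Ptgs2 in the order of ratios. S100a8-001 averaged 130.2 estimated counts after ATP and 18.6 in Control. The sums were 781 counts after ATP and 93 in Control, again whole. The ratio of 6.998 had a counting interval of 5.64 to 8.77, which overlaps that of Ptgs2, so counting error alone leaves their order unsettled. S100a8-001 had no row in the depth-scaled tables, so its ratio comes only from counts not scaled for depth. S100a8 is abundant in neutrophils. Of the other 12 genes in a list of neutrophil markers, 1 had a row: the collagenase Mmp8 averaged a depth-scaled value of 3.06 after ATP and 8.46 in Control (ratio 0.36). S100a9 was among the 11 without a row, and the part of such cells in the S100a8 difference was not tested.

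**Figure D2:**
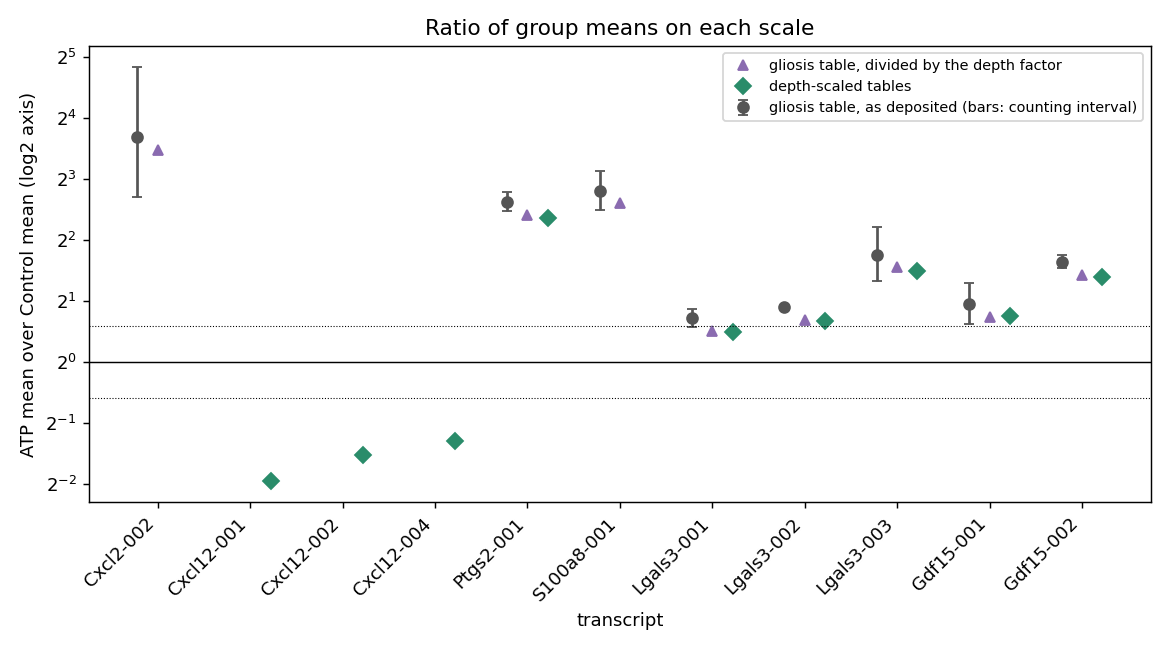
ATP mean over Control mean of each mediator transcript on a log2 axis, from the gliosis table as deposited (circles, bars are exact 95% counting intervals), from the same table divided by the depth factor of 1.16 (triangles) and from the depth-scaled tables (diamonds); dotted lines mark 1.5-fold in either direction. Triangles and diamonds lie close together, and those of Lgals3-001 (1.42 and 1.40) lie under the upper dotted line.

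Lgals3, a galectin that many activated phagocytes and glial cells make, had by far the highest level of the mediators, and its 2 more abundant transcripts had the smallest ratios of the 8 in the gliosis table. Lgals3-002 averaged 9153 estimated counts after ATP and 4891 in Control, place 8 of 222 by its total. Its ratio was 1.87, with a counting interval of 1.84 to 1.90. Lgals3-001 had 194.4 counts after ATP and 118.3 in Control, a ratio of 1.64 (interval 1.49 to 1.82). Lgals3-003, the scarcest, had the highest ratio of the gene, 3.39 (interval 2.51 to 4.61), with 37.8 counts after ATP and 11.2 in Control. The interval of Lgals3-003 lies above those of both other transcripts.

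On the depth-scaled values, Lgals3-002 averaged 770.4 after ATP and 484.6 in Control, a ratio of 1.59 that is just past 1.5-fold. Lgals3-001 had 16.5 after ATP and 11.7 in Control, and its ratio of 1.40 is just short of 1.5-fold. Lgals3-003 had 3.12 after ATP and 1.11 in Control (ratio 2.82). As macrophages also make galectin-3, their markers were counted, of which 2 of 16 had a row, both in the gliosis table. Cd68 had 43.05 estimated counts after ATP and 22.6 in Control (ratio 1.91), and Cd14 had 22.5 after ATP and 41 in Control (ratio 0.55). The part of macrophages in the Lgals3 difference was not tested.

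Gdf15, a distant member of the TGF-β family that cells release under stress, was higher after ATP in both listed transcripts. Gdf15-002 averaged 632.1 estimated counts after ATP and 202.1 in Control, a ratio of 3.13 (interval 2.92 to 3.35). Gdf15-001 had 42.05 counts after ATP and 21.7 in Control, a ratio of 1.94 (interval 1.55 to 2.46). Both transcripts together gave 4045 counts after ATP and 1119 in Control, whole numbers within 0.01, as when reads are divided between these transcripts alone. On the depth-scaled values, Gdf15-002 had 52.7 after ATP and 20.1 in Control (ratio 2.62), and Gdf15-001 had 3.58 after ATP and 2.11 in Control (ratio 1.70).

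Within genes, the main transcript held most of the signal in both groups. Lgals3-002 made up 97.5% of the listed Lgals3 counts after ATP and 97.4% in Control. The summed Lgals3 counts, 56312.9 after ATP and 25101.8 in Control, were not whole, as when reads are also divided with unlisted transcripts. Gdf15-002 made up 93.8% of the Gdf15 counts after ATP and 90.3% in Control, and the counting intervals of the ratios of its 2 transcripts did not overlap. Cxcl12-001 made up 79.2% of the Cxcl12 depth-scaled signal after ATP and 84.0% in Control. A division of reads among isoforms is an estimate, and its error is not in the counting intervals.

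**Figure D3:**
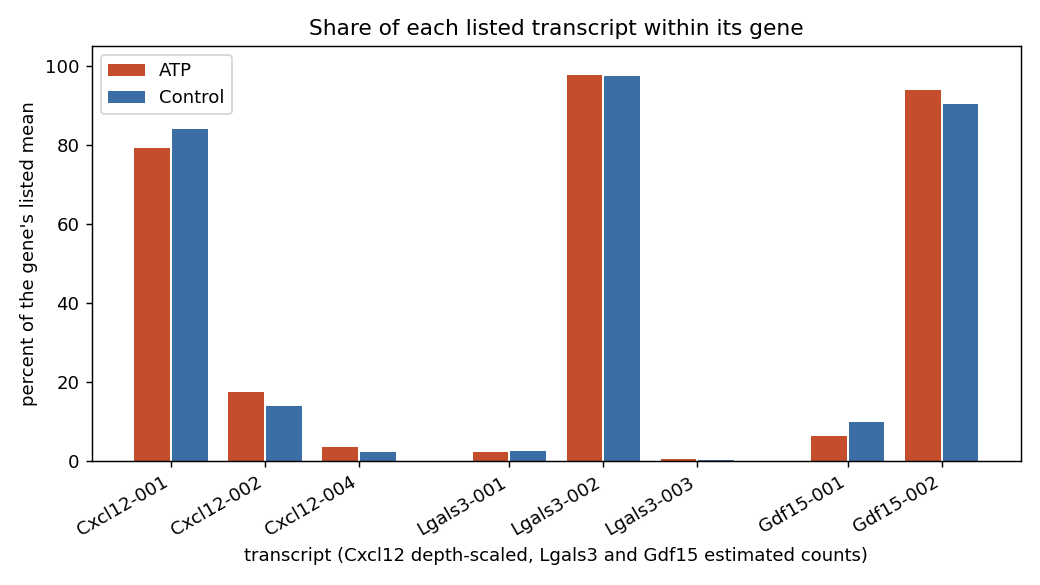
Percent of the summed mean of a gene's listed transcripts that each transcript holds, after ATP (left bar) and in Control (right bar), for the 3 mediators with more than 1 listed transcript. One transcript per gene holds at least 79.2% in each group.

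The estimated counts carry the depth of the libraries, and the 49 transcripts listed on both scales show by how much. The ratio from counts was a median of 1.16 times the depth-scaled ratio, with a range of 0.98 to 1.27. Over the 6 mediator transcripts among them, this quotient ran between 1.14 and 1.205. Divided by the median, the ratio of Cxcl2-002 was 11.1, that of S100a8-001 was 6.04 and that of Ptgs2-001 was 5.33. After this division 7 of the 8 ratios were at or above 1.5. One depth-scaled unit stood for a median of 11.7 counts in the ATP means (10.5 to 12.9) and 10.1 in the Control means (9.67 to 11.2). For Ptgs2 it stood for 12.8 counts in the ATP mean, near the upper end of the range. If each library was scaled by a single factor, this quotient is higher where the deeper libraries hold more of a transcript.

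The table of significant genes lists only transcripts past the authors' limits, and all of its ratios were at least 1.5-fold in one direction, 47.7% of 2070 transcripts higher and 52.3% lower. It held 6 mediator transcripts, 4 higher and 2 lower, and that all 6 were past 1.5-fold follows from how the table was made. Cxcl2-002 and S100a8-001 had no row in it. Ptgs2-001 was at place 41 from the highest ratio, Lgals3-003 at 161, Gdf15-002 at 198 and Lgals3-002 at 848. In the same order, Cxcl12-002 was at place 1767 and Cxcl12-001 at 1956. By total signal, Lgals3-002 was at place 11 of 2070.

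**Figure D4:**
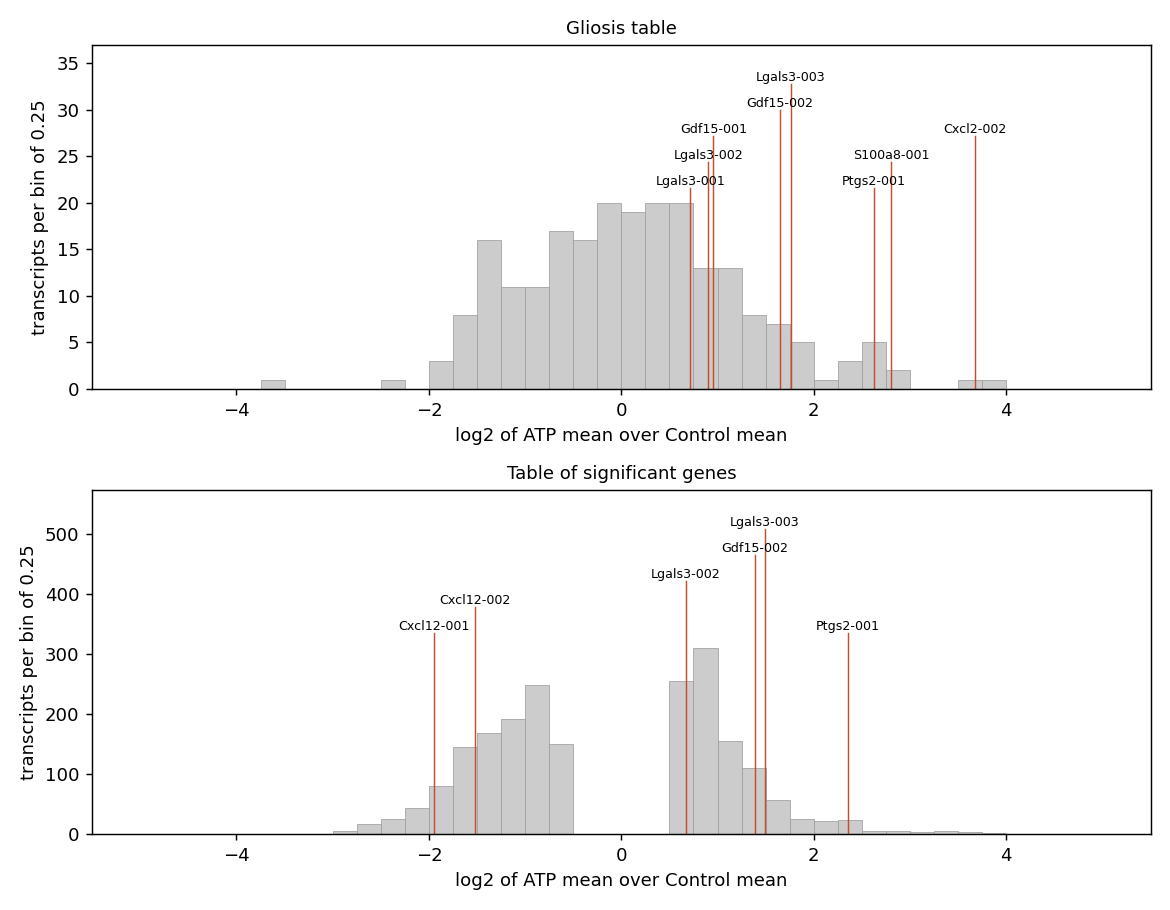
Number of transcripts per bin of 0.25 on the log2 ratio of ATP mean over Control mean (grey bars), for the gliosis table above and the significant genes below, with a vertical line at each mediator transcript. Ptgs2-001, S100a8-001 and Cxcl2-002 stand at 2.62, 2.81 and 3.68 in the gliosis table, and the gap around 0 in the lower plot comes from the 1.5-fold limit.

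The transcripts of other genes with the most similar pair of means were found by distance on log2(mean + 1) among the significant genes. Next to Ptgs2-001 was Pmvk-004, with 35.7 after ATP and 6.88 in Control, at a distance of 0.02, followed by Nrd1-002 and Akap6 at 0.38 and 0.40. Next to Cxcl12-001 were Igf1-001 (23.7 after ATP, 97.9 in Control), Col14a1-001 and Cnn2-001, at 0.23 to 0.31. Gdf15-002 had Rbm39-021, Gclm-001 and Acsl4-002 at 0.08 to 0.10. Lgals3-002 had Gm28661-001, Gstp1-001 and Hsp90aa1-004 at 0.19 to 0.27. Cxcl12-002 lay closest to Lifr-203, Elk3-002 and Slc24a3-004, and Lgals3-003 to Otud3-001, Klc2-007 and Psph-001, all within 0.07. With 2 group means for each transcript, such likeness says only that the levels are near each other.

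Around the mediators, 9 lists with 224 genes were looked up, and 34 genes other than the mediators had a row. A gene without a row was not listed by the authors, and its level is unknown here. For genes with several transcripts, the one with the largest total was counted. The shares past 1.5-fold given above are per table and per transcript, and the lower share of the MAPK cascade was not given. No share was computed over the pooled depth-scaled values or per gene. The depth-scaled values also include the significant genes, where every ratio was at least 1.5-fold in one direction. A transcript listed only there could not be within the limit. The counts below are therefore a description only.

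Among 36 other chemokine ligands, 5 had a row. In estimated counts, 1 of 3 was higher by at least 1.5 times: Cxcl1, another CXCR2 ligand, averaged 206.5 counts after ATP and 110.8 in Control (ratio 1.86). The monocyte chemokine Ccl2, with 340.5 after ATP and 351.6 in Control (ratio 0.97), was within the limit. So was Ccl7, with 406.3 after ATP and 583.6 in Control (ratio 0.70). These counts are not scaled for depth, and division by the depth factor of 1.16 would take Ccl7 past the lower limit. In depth-scaled values both listed chemokines were lower. Cxcl16-002, a membrane-bound ligand of CXCR6, had 7.77 after ATP and 20.3 in Control (ratio 0.38), and Ccl8-001 had 2.57 after ATP and 9.90 in Control (ratio 0.26). Of 22 chemokine receptors 1 had a row, Cxcr5, with 7.03 after ATP and 11.6 in Control (ratio 0.61), and the receptors of the mediators had none.

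Of 24 other prostanoid genes, 1 had a row. Abcc4, a transporter that exports prostaglandins, averaged a depth-scaled value of 7.04 after ATP and 3.78 in Control (ratio 1.86). The synthases that act after COX-2 had no row. Of 21 other S100 proteins, alarmins and their receptors, 2 had a row. S100a10 had 3595 estimated counts after ATP and 3639.6 in Control (ratio 0.99), beside the ratio of 6.998 of S100a8. Hmgb1, a nuclear protein that acts as an alarmin outside the cell, had a ratio of 1.25 for its main transcript Hmgb1-001, of 0.57 for Hmgb1-002 and of 1.56 for the scarce Hmgb1-003.

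Of 10 other galectins and galectin-binding proteins, 2 had a row. Galectin-1 (Lgals1) had 7117 estimated counts after ATP and 5746.4 in Control (ratio 1.24), and Lgalsl-001 averaged a depth-scaled value of 13.7 after ATP and 21.0 in Control (ratio 0.65). Among 34 other genes around Gdf15 in the TGF-β family, 7 had a row. In depth-scaled values 5 of 6 were lower and 1 was higher. The lower ones were Gdf6-001 (3.38 after ATP, 18.5 in Control, ratio 0.18), Tgfbr2 (ratio 0.44), Tgfb3 (ratio 0.47), Gdf1-001 (ratio 0.49) and Bmpr2-001 (ratio 0.59). The co-receptor of GDF15, Ret, is also among the neuronal markers counted below. Ret-002 had 14.2 after ATP and 8.73 in Control (ratio 1.63), and Ret-001 had a ratio of 1.205. In estimated counts Tgfb1-001 had a ratio of 1.28, and the scarcer Tgfb1-004 had 1.84.

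Of 35 cytokines outside the chemokines, 8 had a row. In estimated counts 5 of 5 were higher: Il6-001 with a ratio of 5.88, Il11-001 with 3.38, Spp1-001 with 2.55, Clcf1-001 with 2.05 and Lif with 1.92. A second transcript, Il6-003, had 17.5 counts after ATP and 20.3 in Control, a ratio of 0.87. In depth-scaled values Il6-001 had a ratio of 6.02 and Il6-003 one of 0.83, and the other 3 genes were lower: Il17d (ratio 0.42), Il34-004 (ratio 0.50) and Tnfsf12-001 (ratio 0.54). Of 18 NF-κB subunits and regulators, 4 had a row, all depth-scaled, of which 3 were higher and 1 was lower. Chuk, which encodes the kinase IKKα, had a ratio of 1.91 for Chuk-002, 2.10 for Chuk-001 and 1.05 for Chuk-003. The inhibitor Nfkbib-002 had a ratio of 1.69 and the ubiquitin ligase Traf6-001 had 1.62, while Tnip1-006, of an NF-κB restraining protein, had 0.45. The subunits themselves had no row.

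Since GDF15 is made under stress, 20 genes of the integrated stress response were counted, of which 4 had a row. Slc7a11-001, of the cystine importer, averaged a depth-scaled value of 49.3 after ATP and 5.14 in Control (ratio 9.59). Eif2ak4-001, of the kinase GCN2, was at a low level, with 3.40 after ATP and 1.24 in Control (ratio 2.74). Atf3, a transcription factor, was within the limit in all 3 listed transcripts, with ratios of 1.48, 1.17 and 0.99. Asns, which makes asparagine, had 1.22 in estimated counts.

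**Figure D5:**
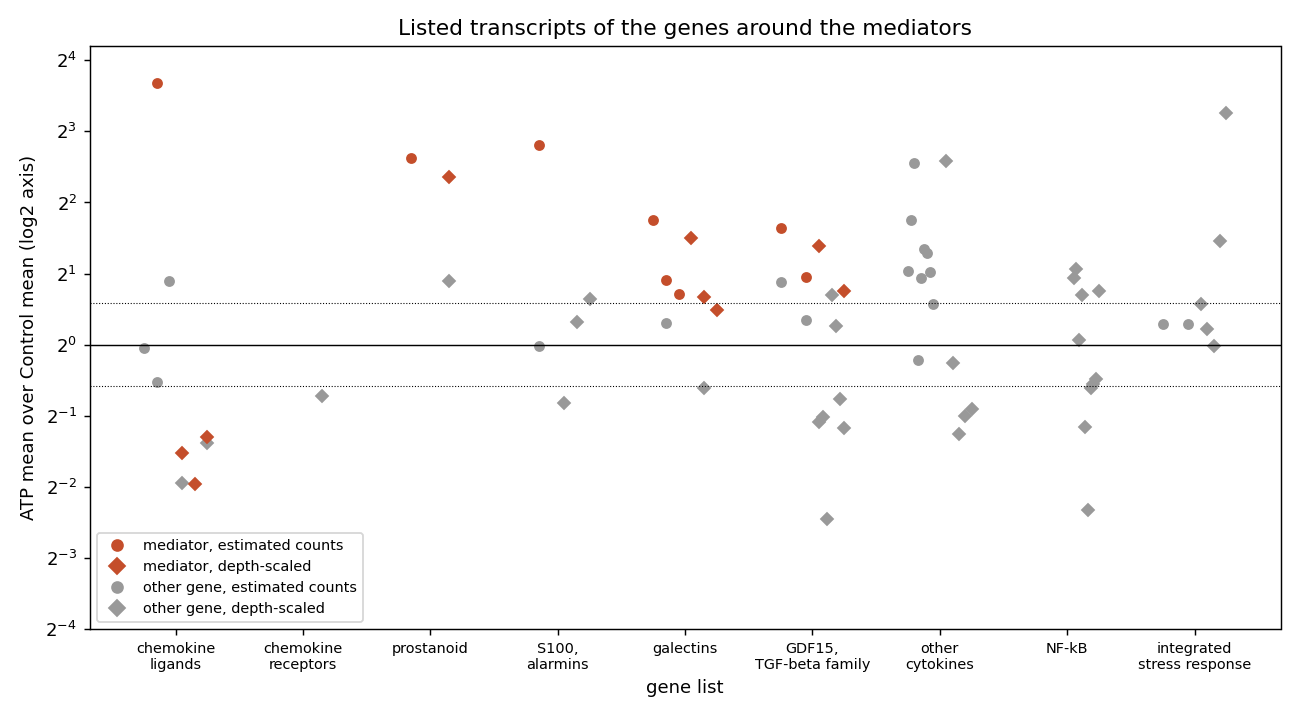
ATP mean over Control mean of each listed transcript in the 9 gene lists, on a log2 axis; orange marks are the mediators and grey marks the other genes, circles are estimated counts and diamonds depth-scaled values, and dotted lines mark 1.5-fold. Chemokine ligands spread between the 0.26 of Cxcl12-001 and the 12.8 of Cxcl2-002.

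Markers of other cell types were looked up beside Cxcl12. All 3 listed fibroblast markers of 10 were lower after ATP. Dcn-202 had 22518 estimated counts after ATP and 51612 in Control (ratio 0.44). Col3a1-001 averaged a depth-scaled value of 825.9 after ATP and 2870 in Control (ratio 0.29). Col1a2-003, at a low level, had 2.06 after ATP and 8.18 in Control (ratio 0.25). The smooth muscle gene Lmod1-001 was lower too, at a low level, with 1.28 after ATP and 3.27 in Control (ratio 0.39). So was the endothelial gene Flt1, with ratios of 0.19 and 0.30 in its transcripts. Cxcl12-001, with its ratio of 0.26, lies in the range of these genes. Among the significant genes 52.3% of 2070 transcripts were lower by at least 1.5 times, so lower values were common beyond these markers. Of 12 neuronal markers, 4 had a row and were higher by the transcript with the largest total, among them Elavl3 (ratio 2.64). The further transcripts Uchl1-001 (ratio 1.48) and Ret-001 (ratio 1.205) were within the limit. Of 12 glial markers only Gfap had rows, both in the gliosis table. By the deposited means, Gfap-001 had 358.5 estimated counts after ATP and 203.5 in Control (ratio 1.76), and the other transcript had a ratio of 1.67, but their totals fit the means only with the groups exchanged. With Gfap exchanged, 32.0% of the gliosis table was higher and 28.4% was lower, against 32.9% and 27.5% as deposited. The label of the cultures as glia could therefore not be checked with these values and rests on the paper's own staining and marker expression. The part of other cells in the Cxcl12 difference was not tested.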

How the data were processed

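The authors made 3′ mRNA libraries from 6 ATP and 5 Control cultures, sequenced single 50 base reads, and deposited 5 transcript tables made in Partek (version, aligner and build: not given in the sources used here). In the gliosis table the authors' means and totals are estimated counts. In the other tables the deposited values are a depth-scaled signal, whose scaling is not stated. These units were read from the values. The deposited columns of fold changes, p-values and adjusted p-values, and the table of GO terms, hold the authors' own comparisons and were not used.

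Ratios are ATP mean over Control mean, set against a limit of 1.5-fold. For estimated counts, group sums were rounded, and exact Poisson intervals (means) and exact binomial intervals (ratios) at 95% were computed with scipy 1.17.1. They cover counting error of reads only, and not the spread between cultures. Since reads carry no molecular identifiers, copies of the same fragment cannot be told apart, and the counting error can be larger than these intervals show. Totals equalled the sum of both groups in all 29 mediator rows. A Gfap row copied into the significant genes was left out.

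The mediators and gene lists were chosen with earlier results of these data known. Named were all mediator transcripts, and from each list up to 4 genes in each direction past 1.5-fold with a group mean of at least 5, with further transcripts and list genes named after their values were seen. Alternatives were a pseudocount of 1, the depth factor, summed transcripts, a fold of 2 and a mean of at least 10. The intervals, the depth factor and the motif search were tested on simulated data. The simulated counts had Poisson error only, without spread between cultures or division among isoforms, so the test does not cover these.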

Additional observations from a re-analysis of the deposited data

How the results depend on the processing

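None of the 50 alternative values turned a direction, but most of them could not. A pseudocount, a higher fold, a limit on the mean and a sum of transcripts that share a direction cannot turn one. The depth factor was smaller than each ratio it divided. With a fold of 2 in place of 1.5, 5 of the 8 mediator transcripts of the gliosis table were higher after ATP, and 3 of the 9 on the depth-scaled values, against 8 and 5 at 1.5-fold. With a group mean of at least 10, 3 depth-scaled transcripts were higher. Division by the depth factor left 7 of 8 higher in the gliosis table, with Lgals3-001 at 1.42. The depth factor was 1.16 from summed means and 1.15 from transcripts with a total of at least 1000. A pseudocount of 1 took Lgals3-003 to 1.95 and Gdf15-001 to 1.47 on the depth-scaled values. No library could be left out, since only group means were deposited. The ratio of Cxcl2-002 rests on 9 counts in Control, and Cxcl12 has no counts and so no interval. An exchange of the Gfap means between groups, added after seeing the data, moved the shares of the gliosis table to 32.0% higher and 28.4% lower. No paired analysis was possible because the tables give group means only.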
